A study of Homo sapiens with 8 samples.

Results

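A set of 10 genes of the fibroblast growth factor (FGF) system was followed in H9 human embryonic stem cells (hESCs): the receptors FGFR1, FGFR2, FGFR3, FGFR4 and FGFRL1, and the ligand-family genes FGF2, FGF8, FGF11, FGF13 and FGF19. They were taken from the tables by gene symbol, from a list of FGF receptors and ligands drawn up with earlier results of these data known. All 10 have a row in the table of the crowding experiment and 9 have one in the table of the knockdown experiment, of 20344 gene symbols in either table. FGF8 is the member without a row in the knockdown table and was not analysed there. Every gene in that table has at least 1 read in each of its 4 libraries, but why FGF8 is missing is not known. FGF8 was also the member nearest to the detection floor in the crowding experiment, with 21 to 39 reads per library.

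FGF ligands bind receptor tyrosine kinases of the FGFR family together with heparan sulfate, and the activated receptors signal through the RAS-ERK cascade to ETS-family transcription factors of the PEA3 group, among them ETV4. In hESCs, FGF2 is supplied in the culture medium and FGF-ERK signalling helps to hold the undifferentiated state and to shape lineage choice. Not every gene of the family encodes a secreted ligand: FGF11 and FGF13 belong to the intracellular FGF homologous factors, which bind voltage-gated sodium channels, and FGFRL1 lacks the kinase domain of the other receptors.

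Polyadenylated RNA of the H9 line (WiCell WA09) was sequenced in 2 experiments of 2 groups each, with 2 libraries per group. In the crowding experiment, cells at low density (labelled small) were compared with crowded cells, which had been confined to small Matrigel-coated islands. In the knockdown experiment, Ctrl cells were compared with ETV4 KD cells, in which a short hairpin RNA targets ETV4; the study's supplement numbers these libraries, but whether the numbers stand for hairpins or for replicates of 1 hairpin is not given in the sources used here, so hairpin and replicate cannot be told apart. All 4 groups share the H9 background and, per the labels, growth on Matrigel in mTeSR1 or TeSR-E8, media that contain FGF2 protein. Total counts per library were 50359703 and 59957148 at low density, 55365694 and 62410168 in crowded cells, 55028105 and 52155822 in Ctrl, and 56630652 and 52790532 in ETV4 KD. Nothing in the labels says that the 2 libraries of a group came from separate cultures, so p-values measure only the spread between these libraries, which may be technical.

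The labels were checked first. ETV4 was at 90.8 and 95.1 FPKM, a level corrected for transcript length and library depth, in Ctrl and at 45.6 and 40.9 in ETV4 KD, a log2 fold change of -1.15 ± 0.073 (SE; adjusted p = 0.00016, edgeR's quasi-likelihood test, Benjamini-Hochberg adjusted across the whole table). The hESC identity was checked with 8 markers, all of which had a row in both tables. Their summed level was 3297 and 3170 FPKM at low density, 3331 and 3195 in crowded cells, 2596 and 2765 in Ctrl, and 2781 and 2764 in ETV4 KD, with POU5F1 (OCT4) the most abundant in every library. None of the 8 passed an adjusted p of 0.05 with a log2 change over 0.5 in either direction with crowding. Under that size, NANOG (log2 fold change -0.46), ZFP42 (-0.30) and POU5F1 (-0.14) fell with crowding at an adjusted p below 0.05, and SOX2 (0.41) and LIN28A (0.11) rose. With ETV4 KD LIN28A rose (0.51) and DNMT3B (-0.82) and TDGF1 (-0.82) fell past that size. NANOG fell there by 0.44, under it (adjusted p = 0.0165, edgeR).

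FGFR1, the receptor that carries much of the FGF2 response in pluripotent cells, was the most abundant member in all 4 groups. It stood above 95.7% of the genes in the crowding table at low density. Below it, FGF2, FGFR4 and FGFR2 formed a second tier between 19.9 and 36.4 FPKM in every library. FGF19, FGFRL1, FGFR3, FGF11 and FGF13 lay between 1.81 and 11.0 FPKM, and FGF8 stayed under 0.5 FPKM. The order within each tier was not the same in every group. FGFR4 and FGF2 overlapped in Ctrl, FGFR2 and FGFR4 overlapped in ETV4 KD, FGFRL1 and FGFR3 overlapped in crowded cells, and FGFRL1 and FGF19 overlapped in ETV4 KD, whereas the libraries of the other neighbouring genes in each group's order were separate. The 2 tables were normalised separately, so levels set side by side across experiments were not tested.

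**Figure D1:**
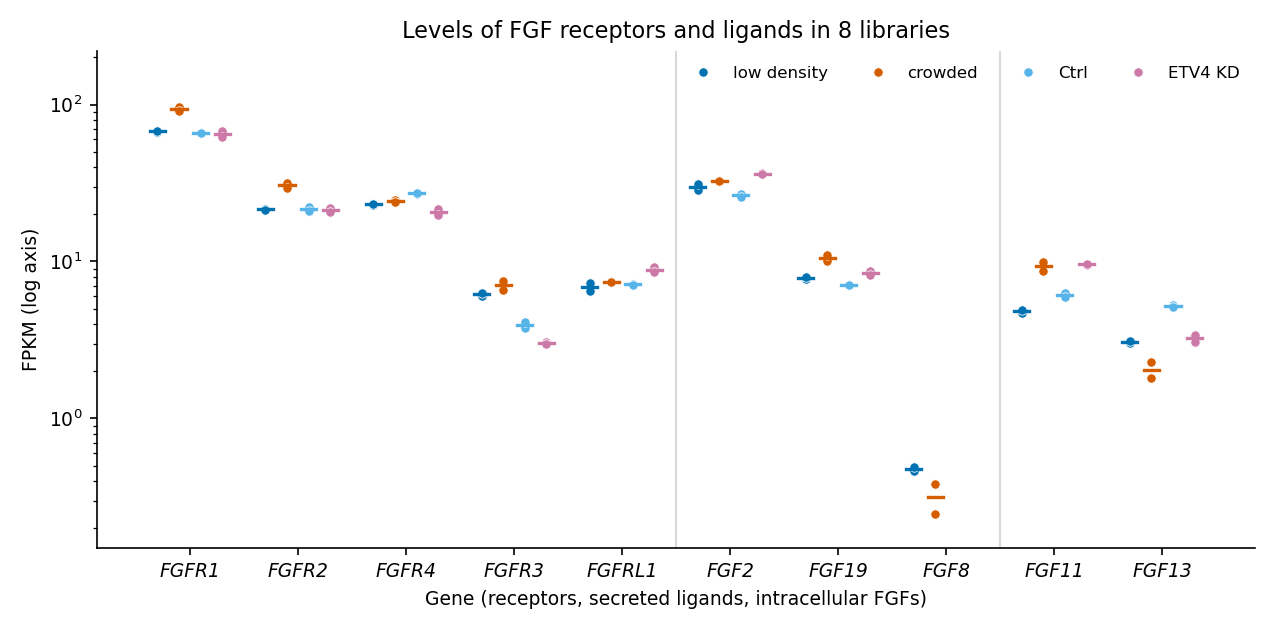
Level of each gene in each of the 8 libraries in FPKM (log axis), with points for libraries and a short line for the mean of the 2 libraries of a group. FGFR1 is the highest in every group, FGF8 the lowest and shown only for the crowding experiment, and FGF11 rises while FGF13 falls in both comparisons.

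The first comparison asked how these genes responded to crowding. Of the 10 members, 5 passed an adjusted p of 0.05, against 39.7% of all 17672 genes tested. FGFR1, FGFR2, FGF11 and FGF19 were higher in crowded cells, 4 of 10 against 19.4% of all genes, and FGF13 was lower, 1 of 10 against 20.3%. A differentially expressed gene (DEG) was defined by an adjusted p below 0.05 together with an absolute log2 fold change over 0.5. By that rule 2 members were DEGs, against 16.1% of all genes tested: FGF11 upward, where the share of all genes was 10.7%, and FGF13 downward, where it was 5.47%. The FPKM of the crowded libraries did not overlap those at low density for any of the 10 members, against 70.2% of all genes tested. The median log2 fold change was 0.11 over the members and 0.0032 over all genes.

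The second comparison asked how they responded to the partial knockdown of ETV4. Of the 9 members tested, 4 passed the adjusted p, against 21.5% of all 17879 genes tested. FGF2 and FGF11 were higher in ETV4 KD, 2 of 9 against 10.6% of all genes, and FGFR4 and FGF13 were lower, 2 of 9 against 10.9%. FGF11 and FGF13 were again the DEGs, 2 of 9 against 13.0% of all genes, with shares of 5.88% upward and 7.10% downward over all genes. The groups did not overlap for 7 members, against 63.3% of all genes, and the median log2 fold change was 0.02 over the members and -0.0012 over all genes.

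FGFR1 was at 66.6 and 68.3 FPKM at low density and at 96.8 and 91.0 in crowded cells, and both crowded libraries lay above both low-density libraries. Its log2 fold change was 0.43 ± 0.051 (adjusted p = 1.45e-06, edgeR), a significant rise that stayed under the size required of a DEG. In the knockdown experiment FGFR1 was at 66.2 and 65.8 FPKM in Ctrl and at 68.3 and 62.4 in ETV4 KD. Here the groups overlapped, and the log2 fold change of -0.01 ± 0.069 did not pass (adjusted p = 0.917, edgeR). In these bulk libraries, a change in the RNA per cell and a change in the share of cells that express a gene cannot be told apart.

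FGFR2 (10:123237846-123357972, minus strand, GRCh37), the paralogue best known for its role in epithelial tissues, followed FGFR1. It was at 21.6 and 21.4 FPKM at low density and at 31.8 and 29.5 in crowded cells. The log2 fold change was 0.43 ± 0.058 (adjusted p = 6.09e-06, edgeR). Tested instead with limma on log2(FPKM + 0.5), the change was 0.50 and FGFR2 counted as a DEG in place of FGF13. ETV4 KD left overlapping values, with 22.4 and 21.0 FPKM in Ctrl and 21.9 and 20.8 in ETV4 KD (log2 fold change 0.02 ± 0.076).

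FGFR4 (5:176513906-176525145, plus strand) and FGFR3 (4:1795020-1810599, plus strand) are the other 2 kinase receptors, FGFR4 being the usual partner of FGF19. FGFR4 was at 22.9 and 23.3 FPKM at low density and at 24.5 and 23.8 in crowded cells, a log2 fold change of 0.03 ± 0.057 that did not pass (adjusted p = 0.701, edgeR). In Ctrl it was at 27.0 and 27.5 FPKM, and in ETV4 KD at 21.6 and 19.9. Both ETV4 KD libraries lay below both Ctrl libraries, and FGFR4 fell by 0.36 ± 0.077 on the log2 scale (adjusted p = 0.0151, edgeR). This call was lost without either Ctrl library, with adjusted p-values of 0.115 and 0.115 and log2 fold changes of -0.36 and -0.35.

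FGFR3 was at 6.02 and 6.34 FPKM at low density and at 6.61 and 7.49 in crowded cells, with a log2 fold change of 0.15 ± 0.075 (adjusted p = 0.133, edgeR). It was at 3.77 and 4.12 FPKM in Ctrl and at 3.05 and 3.00 in ETV4 KD, where the log2 fold change of -0.36 ± 0.11 was close to that of FGFR4 but missed the threshold (adjusted p = 0.0576, edgeR). With DESeq2 the same change of -0.36 passed, at an adjusted p of 0.047. In both comparisons the libraries of the 2 groups were separate. The crowding change rested on single libraries: it was 0.22 and passed without crowded replicate 1 (adjusted p = 0.0141, edgeR), but was 0.07 without crowded replicate 2 (adjusted p = 0.528).

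Summed over the kinase receptors FGFR1 to FGFR4, the level per length was 117 and 119 FPKM at low density and 160 and 152 in crowded cells. It was 119 and 118 FPKM in Ctrl and 115 and 106 in ETV4 KD. The sum was thus higher in both crowded libraries and lower in both ETV4 KD libraries than in their controls, but an exact two-sided permutation test of 2 against 2 libraries cannot go below p = 0.33. FGFR1 made up 57.0% ± 0.27 (SD, n = 2) of that sum at low density and 60.3% ± 0.46 in crowded cells. It made up 55.5% ± 0.075 in Ctrl and 59.2% ± 0.45 in ETV4 KD.

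**Figure D2:**
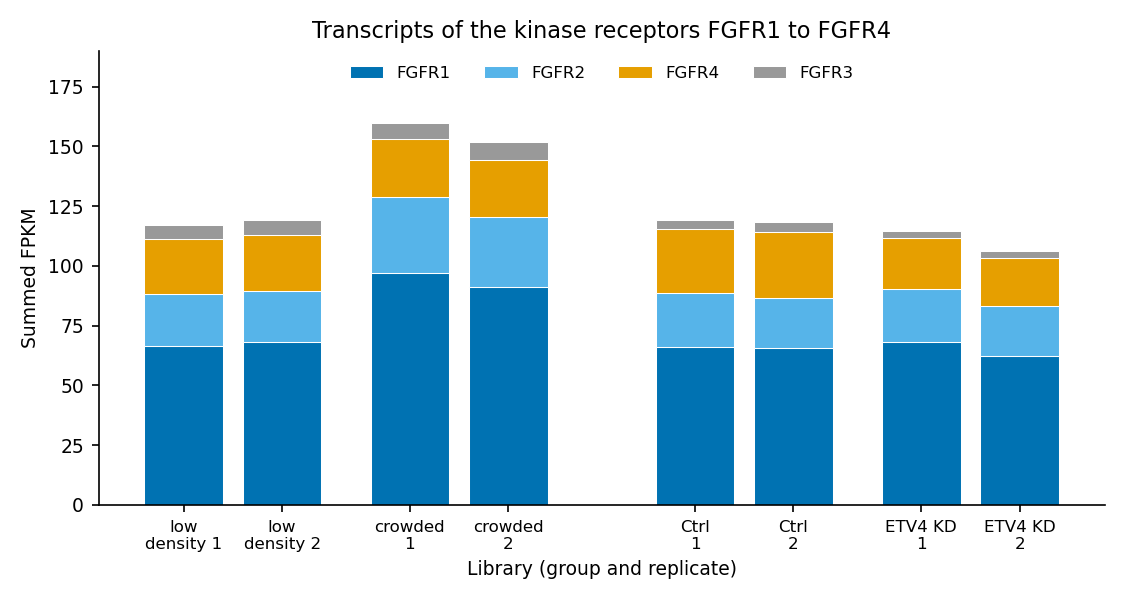
Summed FPKM of the 4 kinase receptors in each library, with 1 bar per library and 1 colour per receptor. The crowded libraries reach 160 and 152 FPKM against 117 and 119 at low density, and FGFR1 is the largest part of every bar.

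FGFRL1 (4:1003724-1020686, plus strand), the receptor without a kinase domain, was at 6.49 and 7.28 FPKM at low density and at 7.44 and 7.38 in crowded cells (log2 fold change 0.01 ± 0.080, adjusted p = 0.956, edgeR). It was at 7.19 and 7.09 FPKM in Ctrl and at 9.21 and 8.53 in ETV4 KD. The ETV4 KD libraries were the higher ones, but the log2 fold change of 0.21 ± 0.092 did not pass (adjusted p = 0.141, edgeR).

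FGF2 (4:123747837-123819391, plus strand) encodes the ligand that is also added to the medium, and it was the most abundant ligand gene in every group. It was at 28.6 and 31.2 FPKM at low density and at 32.7 in each crowded library, with a log2 fold change of 0.07 ± 0.057 that did not pass (adjusted p = 0.326, edgeR). In Ctrl it was at 27.1 and 25.8 FPKM and in ETV4 KD at 36.4 and 36.0. Both ETV4 KD libraries exceeded both Ctrl libraries, and FGF2 rose by 0.46 ± 0.072 on the log2 scale (adjusted p = 0.00475, edgeR). Without Ctrl replicate 1 the change was 0.51, past the size of a DEG. Exons of FGF2 overlap those of NUDT6, a gene on the opposite strand, over 804 bases. NUDT6 was at 2.02 and 2.13 FPKM in Ctrl and at 1.87 and 1.75 in ETV4 KD, and whether counting used the strand is not given in the sources used here.

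FGF19 (11:69513006-69518790, minus strand), an endocrine-type ligand known from the control of bile acid synthesis, was at 7.77 and 7.98 FPKM at low density and at 10.1 and 11.0 in crowded cells. Both crowded libraries were higher, and FGF19 rose by 0.37 ± 0.086 on the log2 scale (adjusted p = 0.00183, edgeR), under the size of a DEG. It was at 7.04 and 7.07 FPKM in Ctrl and at 8.69 and 8.26 in ETV4 KD. The groups were separate there too, but the log2 fold change of 0.27 ± 0.11 did not pass (adjusted p = 0.108, edgeR).

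FGF8 (10:103529866-103540128, minus strand), a secreted ligand of gastrulation and of neural patterning, was counted with 31 and 39 reads at low density and with 28 and 21 reads in crowded cells. These reads correspond to 0.464, 0.493, 0.384 and 0.247 FPKM. The log2 fold change of -0.64 carried an SE of 0.38 and did not pass (adjusted p = 0.196, edgeR), so no difference was detectable at this depth.

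The intracellular genes FGF11 and FGF13 were the members with a DEG call in both comparisons, and in each of them FGF11 rose and FGF13 fell. FGF11 (17:7341592-7348256, plus strand) was at 4.71 and 4.93 FPKM at low density and at 8.68 and 9.96 in crowded cells, a log2 fold change of 0.90 ± 0.088 (adjusted p = 9.45e-08, edgeR). It was at 6.30 and 5.91 FPKM in Ctrl and at 9.53 and 9.64 in ETV4 KD, a log2 fold change of 0.65 ± 0.10 (adjusted p = 0.00477, edgeR). In both experiments the 2 perturbed libraries lay above both controls. Non-coding RNAs on the same strand, ENSG00000272884 and ENSG00000262880, share 4169 and 1420 exon bases with FGF11. No level was available for either, and whether their reads contributed to the FGF11 change was not tested.

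FGF13 (X:137696888-138304939, minus strand) was at 3.01 and 3.14 FPKM at low density and at 1.81 and 2.28 in crowded cells. The log2 fold change was -0.64 ± 0.086 (adjusted p = 5.16e-05, edgeR). Without crowded replicate 1, the lower of the 2 crowded libraries, it was -0.49, still past the adjusted p but no longer a DEG. With limma it was also under the size of a DEG, at -0.49 on log2(FPKM + 0.5) and -0.42 on log2(FPKM + 1). FGF13 was at 5.28 and 5.15 FPKM in Ctrl and at 3.40 and 3.08 in ETV4 KD, a log2 fold change of -0.68 ± 0.077 (adjusted p = 0.00145, edgeR), with all perturbed libraries below their controls. The FPKM of FGF13 rest on a long gene model, whose longest annotated transcript spans 19.6 kb against 6.22 kb for FGFR1. FGF13-AS1, a non-coding RNA on the opposite strand, shares 167 exon bases with FGF13 and also fell with crowding, from 3.13 and 4.10 FPKM to 2.12 and 2.15 (log2 fold change -0.81, adjusted p = 0.00387, edgeR). In the knockdown experiment FGF13-AS1 did not pass (log2 fold change -0.28, adjusted p = 0.253, edgeR). Whether shared reads contributed to the FGF13 change was not tested.

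**Figure D3:**
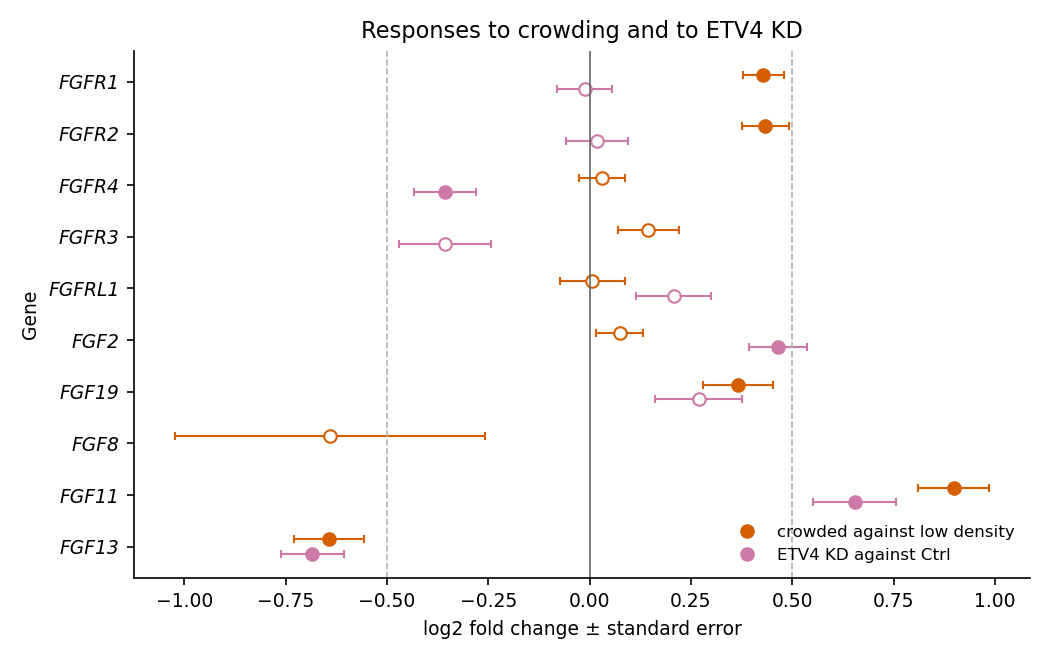
Log2 fold change of each gene in the crowding and knockdown comparisons (points) with its standard error (bars), filled where the adjusted p was below 0.05. Dashed lines mark the DEG size of 0.5 in either direction, which FGF11 passes upward and FGF13 downward in both comparisons (FGF8: crowding only).

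ETV4 is a DNA-binding factor of the ETS family, whose members bind a GGAA core, and for this reason the upstream windows of the members were searched for the letters AGGAAG and CCGGAA on both strands. RefSeq promoter entries matched 7 of the 10 members, with 15 listed starts. Of the 15 starts, 4 held AGGAAG and 0 held CCGGAA within 250 bases upstream of the RefSeq start. Over all 35116 promoters, 28.7% held AGGAAG and 14.5% held CCGGAA. The windows of the first listed start of FGF11 (17:7341367-7341616, plus strand), FGF13 (X:138287186-138287435, minus strand) and FGFR4 (5:176513666-176513915, plus strand) are shown because FGF11 and FGF13 responded in both experiments and FGFR4 was the receptor that fell with the knockdown. They were taken from the RefSeq promoter table (GRCh38.p14) and located by exact match in GRCh37. RefSeq starts and the gene spans given here differ: the FGF11 window holds 25 exon bases of the annotation, that of FGFR4 holds 10, and that of FGF13 lies inside the gene span, at a start within the gene. Each runs 5′ to 3′, and capitals mark AGGAAG or its reverse complement CTTCCT.
FGF11: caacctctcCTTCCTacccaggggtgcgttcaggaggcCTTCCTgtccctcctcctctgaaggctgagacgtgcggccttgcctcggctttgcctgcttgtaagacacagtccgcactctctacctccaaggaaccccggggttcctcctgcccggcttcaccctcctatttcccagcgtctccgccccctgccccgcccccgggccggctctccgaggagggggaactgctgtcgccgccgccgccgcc
FGF13: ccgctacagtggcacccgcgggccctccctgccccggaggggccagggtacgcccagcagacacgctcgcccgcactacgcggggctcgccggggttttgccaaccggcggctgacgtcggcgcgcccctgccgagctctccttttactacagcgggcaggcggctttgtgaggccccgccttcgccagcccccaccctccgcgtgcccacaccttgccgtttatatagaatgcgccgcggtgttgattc
FGFR4: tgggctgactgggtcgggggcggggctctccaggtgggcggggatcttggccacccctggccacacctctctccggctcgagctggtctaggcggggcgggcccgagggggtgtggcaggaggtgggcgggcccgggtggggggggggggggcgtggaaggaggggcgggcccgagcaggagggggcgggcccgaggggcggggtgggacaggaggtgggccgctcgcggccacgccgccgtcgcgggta
The FGF11 window held 2 matches, and the windows shown for FGF13 and FGFR4 held 0, while the other listed start of FGFR4 held AGGAAG. A match is a description of the letters and not a bound site.

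The responses to crowding and to knockdown were then compared directly, with 1 edgeR model over all 8 libraries that tested the crowding effect minus the ETV4 KD effect, each taken within its own experiment. ETV4 RNA itself also fell with crowding, from 73.2 and 72.6 FPKM to 54.2 and 53.9 (log2 fold change -0.49, adjusted p = 9.42e-07, edgeR). That fall was smaller than with ETV4 KD, with a difference of 0.66 ± 0.085 (adjusted p = 0.000122, edgeR). Of the 9 members in both tables, 5 differed (adjusted p below 0.05), against 38.5% of the 17790 genes tested. The 4 kinase receptors all responded more upward, or less downward, to crowding than to ETV4 KD. The difference in log2 fold change was 0.44 ± 0.084 for FGFR1 (adjusted p = 0.0016), 0.41 ± 0.092 for FGFR2 (0.00421), 0.38 ± 0.090 for FGFR4 (0.00537) and 0.50 ± 0.13 for FGFR3 (0.0101). The FGFR3 difference was lost without low-density replicate 1, crowded replicate 2 or Ctrl replicate 2, with differences of 0.46, 0.42 and 0.41 and adjusted p-values of 0.0564, 0.0524 and 0.0523. FGF2 differed in the other direction, by -0.40 ± 0.091 (adjusted p = 0.00453, edgeR).

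For the remaining members no difference between the responses was detected. It was 0.24 ± 0.13 for FGF11 (adjusted p = 0.18, edgeR), 0.04 ± 0.13 for FGF13 (adjusted p = 0.858), 0.09 ± 0.13 for FGF19 (adjusted p = 0.61) and -0.21 ± 0.12 for FGFRL1 (adjusted p = 0.195). Missing the threshold does not show that the responses were equal.

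Outside the members, 17 other FGF genes were examined as a list. FGF3, FGF5, FGF6, FGF7 and FGF17 have no row in either table. Of the 10 tested for crowding, 4 were DEGs upward and 1 downward, against 10.7% and 5.47% of all genes. The median log2 fold change was 0.43 against 0.0032 over all genes. The upward DEGs include FGF9, which passed the filter on low counts only through the crowded libraries. They also include FGF23, whose low-density libraries alone would not have passed that filter. Of the 12 tested for knockdown, 0 were DEGs upward and 2 downward, against 5.88% and 7.10% of all genes, with a median of -0.47 against -0.0012. The crowding count went from 5 to 2 with DESeq2 or with limma on log2(FPKM + 1) and to 3 without low-density replicate 1 or crowded replicate 2, and the knockdown count from 2 to 0 with that limma setting and to 4 without ETV4 KD replicate 1. Only FGF4, FGF12, FGF16, FGF21 and FGF22 reached 1 FPKM in any library.

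FGF4, a ligand gene of pluripotent cells that neighbours FGF19 on chromosome 11 (11:69585790-69590109, minus strand), moved in opposite directions in the 2 experiments. It was at 1.09 and 1.15 FPKM at low density and at 5.68 and 6.26 in crowded cells, and rose by 2.36 ± 0.11 on the log2 scale (adjusted p = 1.57e-12, edgeR). It was at 0.766 and 0.729 FPKM in Ctrl and at 0.220 and 0.337 in ETV4 KD, and fell by 1.41 ± 0.28 on the log2 scale (adjusted p = 0.0113, edgeR). With limma on log2(FPKM + 1) that fall was 0.45 and under the size of a DEG, and that of FGF12 was 0.48. The difference between the FGF4 responses was 3.77 ± 0.25 (adjusted p = 1.75e-06, edgeR). FGF4 thus stood above FGF13 and FGF8 but below FGF11 per length in crowded cells.

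FGF12, an intracellular relative of FGF11 and FGF13, was at 2.25 and 2.26 FPKM in Ctrl and at 1.37 and 1.30 in ETV4 KD, and fell by 0.77 ± 0.12 on the log2 scale (adjusted p = 0.00456, edgeR). With crowding it went from 1.45 and 1.57 FPKM to 1.29 and 1.26 (log2 fold change -0.31 ± 0.11, adjusted p = 0.0379, edgeR), which was not a DEG. The fall was larger in the knockdown, with a difference of 0.46 ± 0.15 (adjusted p = 0.0291, edgeR).

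Among the scarcer ligands, FGF22 rose with crowding from 29 and 30 reads to 64 and 95 (log2 fold change 1.27 ± 0.31, adjusted p = 0.00264, edgeR). FGF16 fell from 73 and 69 reads to 41 and 42 (log2 fold change -0.92 ± 0.30, adjusted p = 0.0175, edgeR), a call lost with DESeq2 and without low-density replicate 1 or crowded replicate 2. FGF23 went from 12 and 10 reads to 29 and 29 (log2 fold change 1.24 ± 0.45, adjusted p = 0.033, edgeR), and its call was lost with DESeq2 and when any 1 of the 4 libraries was left out. FGF9, a ligand of gonadal and skeletal development, had 3 and 3 reads at low density and 14 and 26 in crowded cells. The ratio of the pooled FGF9 reads per library total was 6.24. Its exact 95% counting interval of 2.63 to 18.0 covers counting error only. The FGF9 call (adjusted p = 0.00324, edgeR) was lost without crowded replicate 2 (log2 fold change 2.14) and with limma over all genes (adjusted p = 0.103). FGF9 was also not among the 2 genes of this list called with DESeq2.

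Co-receptors and surface modulators include N-cadherin and L1CAM, cell adhesion partners of FGF receptors. Of 10 tested for crowding, 5 were DEGs downward and 0 upward, against 5.47% and 10.7% of all genes, with a median log2 fold change of -0.64 against 0.0032. Without crowded replicate 1 the count of DEGs was 8. CDH2 (N-cadherin) fell from 18.4 and 18.2 FPKM to 6.87 and 6.33 (log2 fold change -1.53). FGFBP3, a secreted carrier protein of FGFs, fell by 0.78 on the log2 scale, IL17RD (SEF), a membrane inhibitor of FGF signalling, by 0.70, and ANOS1 (anosmin), an extracellular modulator of FGFR1, by 0.63. L1CAM overlapped, with 8.14 and 8.52 FPKM at low density and 7.81 and 8.81 in crowded cells (log2 fold change -0.06, adjusted p = 0.511, edgeR). In ETV4 KD, 1 of 11 was a DEG, L1CAM, which fell from 9.25 and 8.91 FPKM to 5.10 and 4.04 (log2 fold change -0.99), and the median was -0.44. That share was near the 13.0% of all genes, and the count was 2 without Ctrl replicate 1 and 3 without Ctrl replicate 2 or ETV4 KD replicate 1. CDH2 was then slightly higher, at 18.4 and 18.3 FPKM in Ctrl and 21.5 and 22.7 in ETV4 KD (log2 fold change 0.27, adjusted p = 0.0452, edgeR). The klotho co-receptor genes KL and KLB have no row in either table.

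Enzymes that build or trim heparan sulfate, the glycan on which FGFs dimerise their receptors, moved both ways with crowding. Of 13 tested, 3 were DEGs upward and 3 downward, against 10.7% and 5.47% of all genes, with a median log2 fold change of -0.17. The downward DEGs include HS3ST1, with 31 and 34 reads at low density and 8 and 21 in crowded cells. Its crowded libraries alone would not have passed the filter on low counts. SULF1, an extracellular sulfatase that removes sulfate groups from the chains, rose from 1.32 and 1.26 FPKM to 3.37 and 4.35 (log2 fold change 1.54), and GLCE, the epimerase, rose by 0.62 on the log2 scale. SULF2, the other extracellular sulfatase, fell by 0.62 and the chain polymerase EXT1 fell by 0.60. In ETV4 KD, 0 of 13 were DEGs upward and 3 downward, against 5.88% and 7.10%, with a median of -0.26. With limma on log2(FPKM + 0.5) the crowding count went from 6 to 3 and the knockdown count from 3 to 1. SULF1 then fell from 4.01 and 3.50 FPKM to 0.894 and 0.489 (log2 fold change -2.46), and its responses to crowding and knockdown differed by 3.99 ± 0.28 (adjusted p = 2.86e-06, edgeR).

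Of 20 adaptors and members of the RAS-ERK cascade, 1 was a DEG with crowding and 2 with ETV4 KD, against 16.1% and 13.0% of all genes, with medians of 0.0020 and 0.02. The knockdown count was 0 without Ctrl replicate 1 or ETV4 KD replicate 2, 3 without Ctrl replicate 2 and 4 without ETV4 KD replicate 1. HRAS, a small GTPase, fell from 17.4 and 16.6 FPKM to 10.1 and 7.93 with crowding (log2 fold change -0.97). It rose from 10.5 and 10.8 FPKM to 14.3 and 17.7 with ETV4 KD (log2 fold change 0.57, adjusted p = 0.0208, edgeR), a call lost without Ctrl replicate 1 (adjusted p = 0.0508) and, by size, without ETV4 KD replicate 2 (log2 fold change 0.40). SOS1, the exchange factor that loads RAS, fell by 0.50 on the log2 scale with ETV4 KD (adjusted p = 0.0217, edgeR) and also lost its call without Ctrl replicate 1 (adjusted p = 0.116), without ETV4 KD replicate 2 (log2 fold change -0.37) and with each limma setting.

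Of 19 genes for transcriptional output and feedback of FGF-ERK signalling, 2 were DEGs upward and 8 downward with crowding, against 10.7% and 5.47% of all genes, and the median log2 fold change was -0.41. DUSP6, a phosphatase that acts on ERK, fell from 37.7 and 39.7 FPKM to 13.5 and 11.8 (log2 fold change -1.67). IER3, an immediate-early gene, fell by 1.91 on the log2 scale, and SPRY4, a Sprouty inhibitor of receptor tyrosine kinase signalling, fell by 0.78. EGR1, an immediate-early transcription factor, went the other way, from 1.13 and 1.20 FPKM to 3.18 and 3.04 (log2 fold change 1.36). In ETV4 KD the list split into 5 DEGs upward and 5 downward, against 5.88% and 7.10%, the downward ones including ETV4 itself, with a median of -0.11. DUSP6 fell there from 36.6 and 38.5 FPKM to 20.1 and 18.0 (log2 fold change -0.97) and SPRY4 by 0.77 on the log2 scale. EGR1 rose from 2.01 and 2.08 FPKM to 31.9 and 23.3 (log2 fold change 3.76), FOS by 1.65 and FOSL1 by 1.40, and SPRED3, a Sprouty-related inhibitor, by 1.20. With crowding, FOS (log2 fold change -0.52, adjusted p = 0.0241, edgeR) and FOSL1 (-0.76, adjusted p = 0.000139) were DEGs downward instead.

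**Figure D4:**
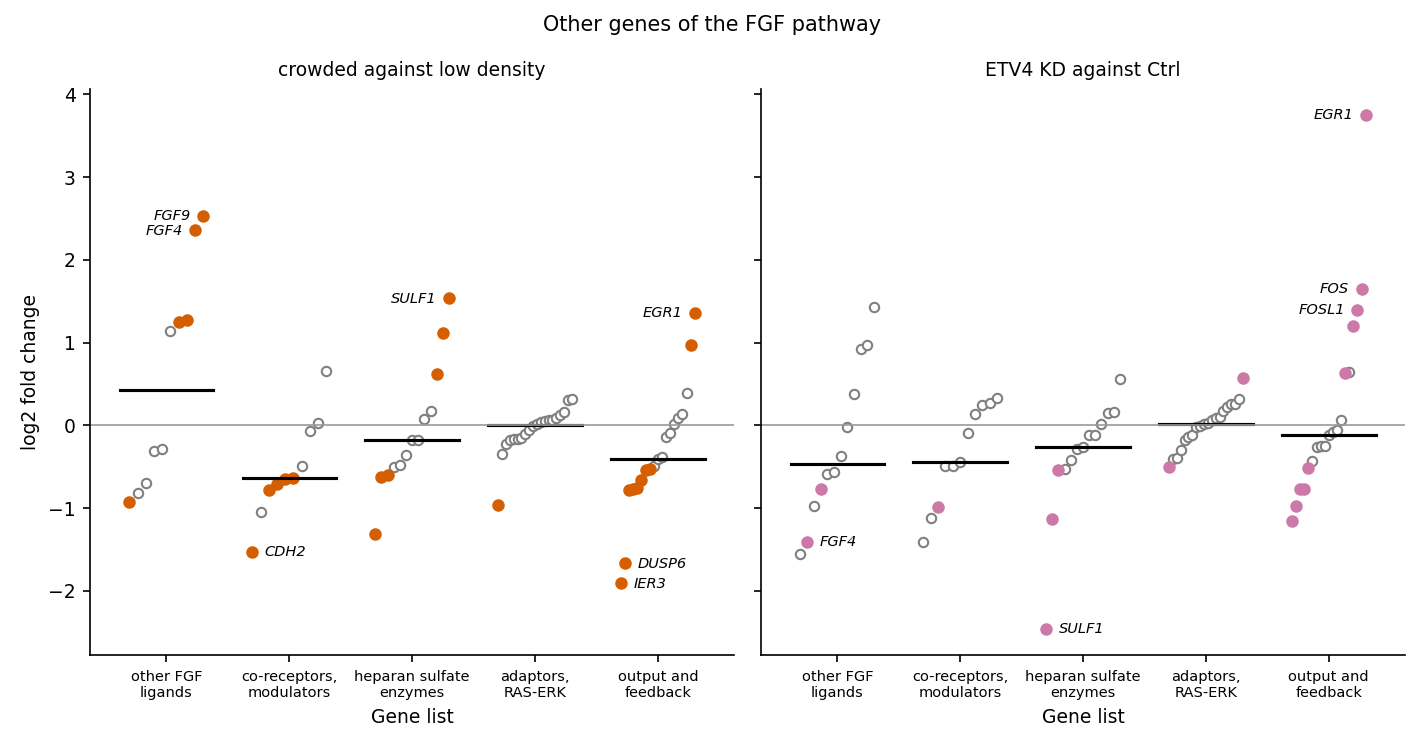
Log2 fold change of each tested gene in 5 lists of the FGF pathway for the crowding comparison and the knockdown comparison. Each point is a gene, filled points are DEGs and black lines are list medians. Named genes are the DEGs with the largest changes and a mean of at least 1 FPKM in either group. The other FGF ligands are named without that floor, so FGF9 with crowding and FGF4 with knockdown are named below 1 FPKM. FGF4 and SULF1 lie above zero in the crowding panel and below it in the knockdown panel.

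Markers of other cell types were read beside these results, since FGF genes also mark differentiating cells. The summed FPKM of 8 neuroectoderm markers, of which 5 had a row in the crowding table and 6 in the knockdown table, was 10.9 and 11.4 at low density, 18.3 and 13.5 in crowded cells, 2.80 and 3.10 in Ctrl and 16.2 and 19.6 in ETV4 KD. OTX2, which pluripotent cells also express, made up nearly all of that sum, with 15.9 and 19.3 FPKM in ETV4 KD, where it rose (log2 fold change 2.73, adjusted p = 0.000103, edgeR). The defining markers were near 0: PAX6 was at 0.031 FPKM or below in the crowding table and has no row in the knockdown table, and SOX1 was at 0.067 FPKM or below in all libraries. At these levels SOX1 was nonetheless a DEG upward with crowding, from 3 and 4 reads to 20 and 18 (adjusted p = 0.00548, edgeR). LHX2 was a DEG downward, from 17 and 18 reads to 6 and 7 (adjusted p = 0.0266, edgeR). Each passed the filter on low counts only through the group where it was higher, so these calls rest on few reads. Mesendoderm markers (5 of 8 with a row in each table) summed to 4.43 and 4.76 FPKM at low density, 1.20 and 0.956 in crowded cells, 2.24 and 3.33 in Ctrl and 1.34 and 2.04 in ETV4 KD. CER1 led this sum in 3 of the groups and MIXL1 in crowded cells (0.591 and 0.546 FPKM, against 0.443 and 0.189 for CER1), SOX17 has no row in either table, and TBXT was at 0.091 FPKM or below. CER1 fell with crowding (log2 fold change -3.53, adjusted p = 3.86e-08, edgeR) and with ETV4 KD (-1.09, adjusted p = 0.048). FOXA2 fell with crowding, from 26 and 48 reads to 4 and 7 (-2.85, adjusted p = 0.000132, edgeR). It too passed the filter only through the group where it was higher.

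Amnion or trophoblast markers (3 and 4 of 8 with a row) summed to 2.95 and 2.95 FPKM at low density, 3.90 and 4.33 in crowded cells, 6.77 and 6.99 in Ctrl and 4.26 and 3.64 in ETV4 KD. GABRP was the most abundant in Ctrl (4.36 and 3.67 FPKM) and KRT7 in the other groups, while TFAP2A and HAND1 have no row in either. GABRP was a DEG downward with ETV4 KD (log2 fold change -1.33, adjusted p = 0.00864, edgeR). Fibroblast markers (5 and 6 of 8 with a row) summed to 117 and 119 FPKM at low density, 83.8 and 84.7 in crowded cells, 155 and 158 in Ctrl and 128 and 118 in ETV4 KD. THY1, which hESCs express as well, was the most abundant of these and fell in both comparisons. PDGFRB was a DEG downward with crowding (log2 fold change -1.58) and with ETV4 KD (-0.54), and POSTN was one with crowding (-1.71). COL1A2 fell in ETV4 KD by 0.496 on the log2 scale, under the size of a DEG (adjusted p = 0.0101, edgeR). COL1A1 went the other way in ETV4 KD, from 21.5 and 22.4 FPKM to 44.9 and 42.8 (log2 fold change 1.00, adjusted p = 0.000205, edgeR), and DCN and LUM have no row in either table. The part of these markers in the FGF gene results was not tested.

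Finally, the genes whose pattern over the 8 libraries was most like that of a member were listed by Pearson's r of log2(FPKM + 0.5), centred within each table, among 4864 genes with at least 10 FPKM in every group. For FGFR1 these were LGR4 (r = 0.992), UBE2G1 (0.990) and NUCB1 (0.988), and for FGF2 they were WASL (0.997), ATPAF1 (0.989) and LINC01578 (0.984). For FGF11 they were WDR54 (0.992), ZNF649 (0.988) and DDIT4 (0.985), and for FGF13 TMED3 (0.983) and NSG1 (0.981). An r above 0.9 was common: 171 genes reached it with FGFR1 and 102 with FGF13, and the points share 2 experiments of 4 libraries each. Sizes differed within a pattern. DDIT4, a stress-induced inhibitor of mTORC1, changed by 1.55 with crowding and 1.37 with ETV4 KD on the log2 scale, against 0.90 and 0.65 for FGF11, and LGR4, a receptor for R-spondins, changed by 0.68 and -0.06 against 0.43 and -0.01 for FGFR1.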

How the data were processed

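RNA-seq of 8 libraries was analysed from 2 deposited tables, 1 per experiment. The authors trimmed reads with Trimmomatic, aligned them to GRCh37 with HISAT2 2.1.0 and estimated expression with StringTie 2.1.3b, per the labels and the study's methods. The deposited read counts per gene, not normalised, were used for every test, and the deposited FPKM values, scaled by the authors for length and depth, were used for levels. A further 16 per-sample columns (TPM and normalised values) and the authors' columns of fold changes and p-values were not used.

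Counts were filtered with filterByExpr, scaled by TMM and tested with the quasi-likelihood test of edgeR 4.0.16 in R 4.3.3, without covariates, with Benjamini-Hochberg adjustment over all genes tested in a table. This tested 17672 and 17879 genes. Alternatives used DESeq2 1.42.0 and limma 3.58.1 on log2(FPKM + pseudocount), other filters and omitted libraries. The scripts were tested on simulated data. Replicate libraries differed beyond counting noise in every group, so none was merged. The biological coefficient of variation was 6.83% in the crowding table and 9.93% in the knockdown table. An SE belongs to a log2 fold change and was derived from that change and its quasi-likelihood F statistic. It thus rests on dispersions moderated across genes, and n is 2 libraries per group throughout.

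Named genes were all members, ETV4, every other FGF gene that was a DEG, and from each pathway list and comparison up to 4 DEGs with at least 1 FPKM and no overlap, by size of change. The likeness rule took 3 genes for FGFR1, FGF2 and each member that was a DEG in both comparisons. A gene that this rule selects is not reported here. The members and lists were chosen with earlier results of these data known. Positions are from GENCODE on GRCh37.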

Additional observations from a re-analysis of the deposited data

How the results depend on the processing

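The adjusted p calls of the members in the crowding comparison were the same 5 genes under the 9 alternatives that kept every library and could change an adjusted p. DEG counts depended on the size limit. The member DEGs in the crowding comparison went from 2 to 1 with limma on log2(FPKM + 1) and to 0 at an absolute log2 fold change over 1, and ranged from 1 to 2 when a library was left out; with limma on log2(FPKM + 0.5) they stayed at 2, with FGFR2 in place of FGF13, and with log2(FPKM + 0.1) they were 3. In the knockdown comparison they went from 2 to 0 at the limit of 1, and to 3 without Ctrl replicate 1, where FGF2 was added. Over the 5 pathway lists the DEGs went from 27 to 16 with limma on log2(FPKM + 1) and to 11 at the limit of 1 in the crowding comparison, and from 18 to 11 and to 8 in the knockdown comparison. By read counts without correction for length, FGFR1 held 66.2% of the receptor sum at low density, 68.8% in crowded cells, 65.8% in Ctrl and 68.0% in ETV4 KD.

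Signs turned only for values near 0. FGFRL1 in the crowding comparison was between -0.0647 and 0.0783 with a library left out (-0.05 without low-density replicate 1). FGFR1 in the knockdown comparison was between -0.0483 and 0.0247 (0.0038 without Ctrl replicate 1). FGFR2 in the knockdown comparison was -0.0213, -0.0209 and -0.0205 with limma at pseudocounts of 0.1, 0.5 and 1 (-0.0209 also over all genes) and between -0.0263 and 0.0717 with a library left out. The difference of effects for FGF13 lay between -0.13 and 0.19 (-0.0035 without ETV4 KD replicate 2). SULF2 fell under the size of a DEG in the crowding comparison with limma on log2(FPKM + 0.5) and log2(FPKM + 1) (-0.49 and -0.47), and EXT1 and FGF16 with log2(FPKM + 1) (-0.49 and -0.38).

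Nothing in the labels says that replicate numbers pair the samples, and the deviations of same-numbered libraries correlated at -0.0419 in the crowding and 0.0854 in the knockdown experiment. With the replicate number as a block, 2874 genes were DEGs in the crowding comparison against 2851, and 2901 against 2321 in the knockdown comparison, where 6 members in place of 4 passed the adjusted p, FGFR3 and FGF19 being added. The member DEGs stayed at 2 in both comparisons. In the knockdown comparison the block took the DEGs among the other FGF genes from 2 to 4, and those among the co-receptors and surface modulators from 1 to 2. With 2 libraries per group, each setting that omits a library assumes that the lone sample varies like the other group.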
